A study of Mus musculus with 11 samples.

Results

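The genes examined here encode the 5 subunits of the transcription factor NFκB (Nfkb1, Nfkb2, Rela, Relb and Rel) and 5 proteins that restrain it or modify its output (Nfkbia, Nfkbib, Nfkbie, Nfkbiz and Tnfaip3). They are listed by symbol and are 10 of the 21899 genes in the deposited table. All 10 passed the filter on low values, which left 14004 genes to test. The data are poly-A RNA-seq of airway tissue from wild-type male young adult BALB/c mice, and they address whether GGsTop, an inhibitor of γ-glutamyl transferase, changes gene expression in a model of asthma exacerbation. The PBS group (3 libraries, PBS 1 to 3) came from non-sensitized mice that received sterile PBS. The OVA/LPS/Vehicle group (4 libraries, labelled OL 12, OL 34, OL 56 and OL 78) was sensitized with ovalbumin and alum, challenged with intranasal ovalbumin, exposed to intranasal LPS and given vehicle intratracheally. The OVA/LPS/GGsTop group (4 libraries, OLG 1 to 4) had the same sensitization, challenge and LPS and was given GGsTop in place of vehicle. Both OVA/LPS groups are called the Vehicle and GGsTop groups below. Every group had the same genotype and strain, so no group carries an allele that another lacks. Neither labels nor methods say whether 12, 34, 56 and 78 denote pooled mice, and p-values measure the spread between these libraries, whatever its source.

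NFκB is a family of dimers that rest in the cytoplasm, bound by inhibitors of the IκB family. Signals from receptors such as TLR4, which senses LPS, activate the IκB kinase complex, the inhibitors are degraded and the dimers enter the nucleus. Among the genes they induce are their own inhibitors and several of their own subunits, so that the response is limited by feedback. In the airway the pathway is known for driving the chemokines that recruit neutrophils. RNA levels do not report the location or activity of the proteins, and in bulk tissue fewer cells of a type and less RNA per cell cannot be told apart.

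NFκB dimers induce genes through κB sites in DNA. The copies near members' start sites are shown here because they tell the members with such a copy from those without one. RefSeq promoter windows on GRCm38.p6, running from 250 bases before to 50 bases after a start site, were given for 7 members. No window was given for Nfkb1, Relb and Nfkbiz. The κB consensus, searched on both strands as the only motif, was found in a window of 5 of the 7 members and in 5.14% of the 27025 genes with a window. Rela and Nfkbib had no match in theirs. For each gene the matches in the window of 1 start site are printed, on the gene's own strand and with the matched bases in capitals. Where capitals run past the length of the consensus, matches overlap one another.
Nfkbia, chr12:55492657-55492686, minus strand: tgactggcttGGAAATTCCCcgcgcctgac
Tnfaip3, chr10:19015516-19015545, minus strand: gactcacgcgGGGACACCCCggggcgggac
Tnfaip3, chr10:19015403-19015432, minus strand: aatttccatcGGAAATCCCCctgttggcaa
Rel, chr11:23771042-23771070, minus strand: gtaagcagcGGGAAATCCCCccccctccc
Nfkbie, chr17:45555584-45555613, plus strand: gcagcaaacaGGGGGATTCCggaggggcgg
Nfkb2, chr19:46304689-46304717, plus strand: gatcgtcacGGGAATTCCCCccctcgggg
Nfkb2, chr19:46304716-46304745, plus strand: ggggccgaaaGGGGCTTTCCcggctggagc
The match in Nfkbia lies 29 to 20 bases before its start site. Tnfaip3 and Nfkb2 each had 2 separate matches in the window of the same start. These are matches of letters, and binding was not measured.

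Levels were deposited as FPKM, the fragments of a gene scaled to the length of its exons and to the total of the library. The fragments recovered from them totalled between 14513136 and 18632382 a library, and each member rested on 192 to 4325 fragments in a library. For members with few fragments, such as Nfkbib with 301 to 338 in the Vehicle libraries, counting error alone was about as large as the spread between libraries. 2 features of the libraries touch the results. In the Vehicle libraries the deviation from a gene's mean level had a slope on GC content of −0.261 to −0.19 log2 units per 10 GC points. This slope was 0.0464 to 0.108 in the GGsTop libraries and 0.0611, 0.0484 and 0.533 in PBS 1, 2 and 3, so PBS 3 stood apart from all others. Treatment and GC slope therefore cannot be told apart in the comparisons with the Vehicle group. The slopes of PBS 1 and 2 lay within the range of the GGsTop libraries, and that of PBS 3 lay above it. Values after a GC correction and without PBS 3 are plotted for every member and given beside a result where they changed its call or direction. Markers of the club cells that line mouse airways were present in every library, at summed levels of 28022 to 50664 FPKM over 3 genes. The labels name trachea, while the study's methods describe dissected airway from which the trachea was removed, and markers of cartilage summed to between 0.256 and 44.8 FPKM. The library OL 12 also held thymocyte markers (4 of 4 genes, 23.6 FPKM in sum against at most 0.348 elsewhere), and OL 12, 34 and 56 held thyroid markers (3 of 3 genes, 92.0 to 309 FPKM against at most 1.52). Cardiac muscle markers (3 genes) summed to 2.62, 1135 and 39.3 FPKM in PBS 1 to 3, 517 to 876 in Vehicle and 319 to 1571 in GGsTop. Fat markers (3 genes) ran from 24.6 to 242, 127 to 267 and 17.5 to 305 FPKM in these groups. The part of these tissues in the members' differences was not tested.

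In order of mean level, 2 genes led in every group. Nfkbia, which encodes the inhibitor IκBα, averaged 84.3 ± 25.4 FPKM (SD, n = 3) in PBS, 106 ± 21.9 (SD, n = 4) in Vehicle and 87.7 ± 13.8 (SD, n = 4) in GGsTop. Rela, which encodes the p65 subunit, was next at 52.7 ± 9.70, 28.9 ± 1.39 and 37.6 ± 4.90 FPKM. The libraries of these neighbours did not overlap in any group. The other 8 members had group means of 4.30 to 16.8 FPKM. In PBS the order was Nfkb2, Nfkb1, Nfkbib, Nfkbiz, Relb, Tnfaip3, Nfkbie and Rel, and the genes from Nfkb2 to Relb overlapped with their neighbours in turn, as did Tnfaip3 with Nfkbie, while Relb lay above Tnfaip3 and Nfkbie above Rel. In the Vehicle group Nfkbiz, Nfkb1 and Nfkb2 came next after Rela and overlapped in turn, and the last places were held by Rel and Nfkbie, which also overlapped.

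**Figure D1:**
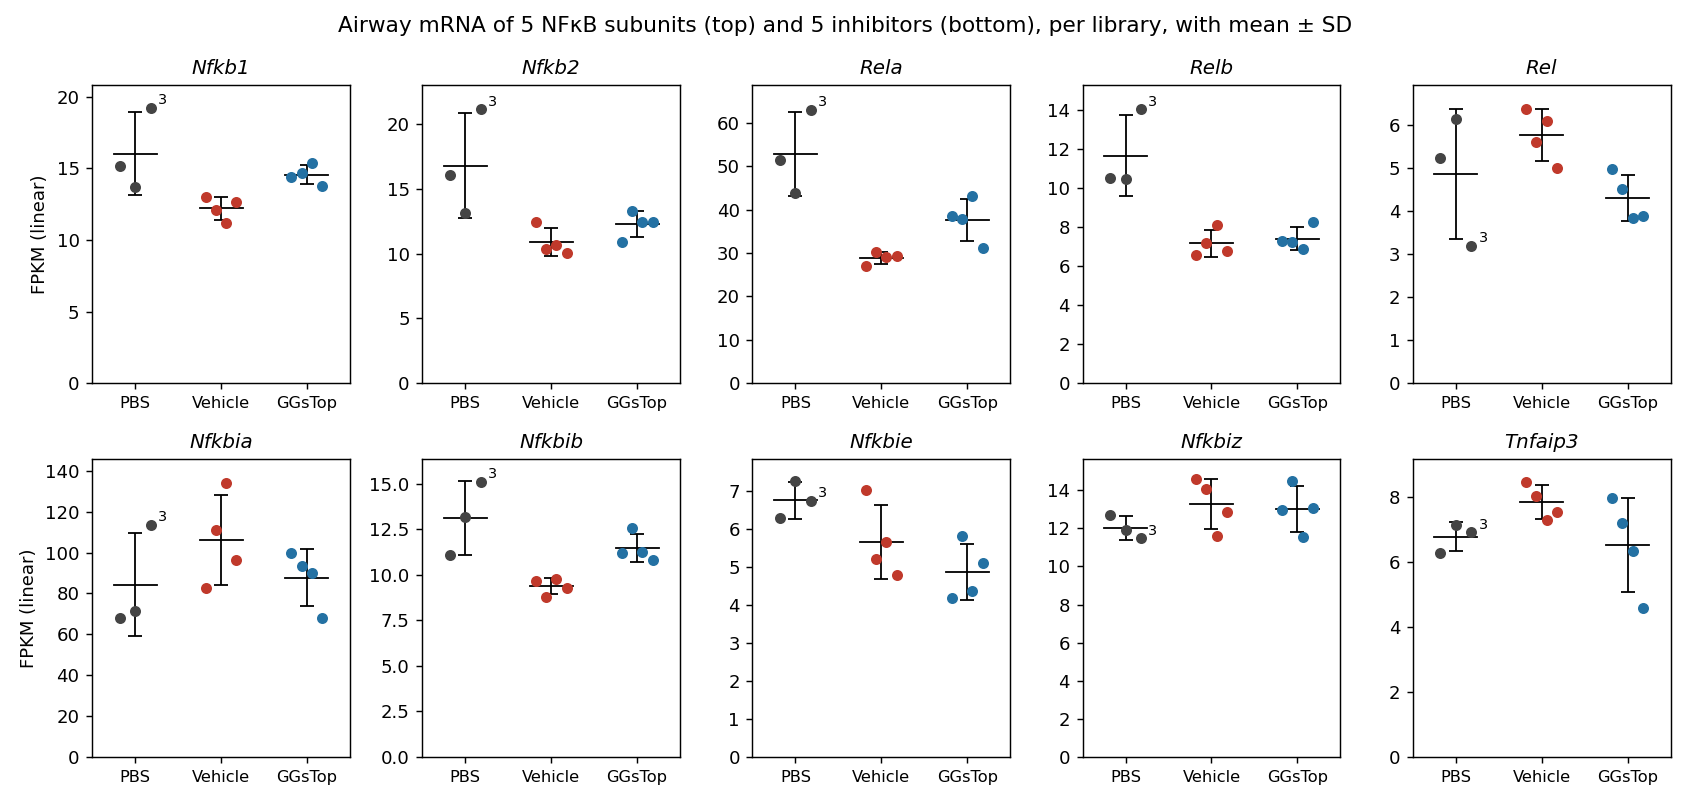
FPKM of the 10 genes (1 panel each, vertical axis from 0) in each library, coloured by group, with the group mean and its SD as bars and the library PBS 3 marked. The 4 Vehicle points lie below all PBS points for Rela, Relb, Nfkb2, Nfkbib and Nfkb1, and PBS 3 is the highest PBS library for each of these.

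The first comparison asks how the Vehicle group differed from the PBS group. No intratracheal dosing is described for the PBS mice, so the comparison cannot separate OVA, alum and LPS from the intratracheal vehicle. Of the 5 subunits, 4 were lower in the Vehicle group than in the PBS group and none was higher. On the deposited values the largest difference was that of Rela, at 0.563 times the PBS level, whereas after GC correction it was that of Nfkb1 (−0.61 on the log2 scale, against −0.46 for Rela). This change of order rested on PBS 3, since with GC correction and PBS 3 left out Rela was at −0.43 and Nfkb1 at −0.37. Relb, Nfkb2 and Nfkb1 were at 0.648, 0.678 and 0.782 times, and Rel, the c-Rel subunit of lymphoid cells, did not pass the test. Of the inhibitors, Nfkbib was lower at 0.740 times, and Nfkbia, Nfkbie, Nfkbiz and Tnfaip3 did not pass. These ratios and all fold changes below are on the scale of log2(FPKM + 1), and a gene is called at an adjusted p under 0.05 in limma's fit of all 11 libraries (two-sided, Benjamini-Hochberg over 14004 genes). Thus 5 of 10 members were called lower and 0 higher, where 22.1% of all genes tested were called lower and 15.9% higher. The 5 genes called lower did not overlap between the groups, which held in this direction for 25.4% of all genes. At an unadjusted p under 0.05 the members again numbered 0 higher and 5 lower, as they did with voom on recovered fragments. Of the 14004 genes tested, 3081 were higher and 3863 lower at this unadjusted p by limma. The median fold change of the members was −0.29, against −0.01 over all genes tested.

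Rela (ENSMUSG00000024927, chr19:5637483-5648130, plus strand) was 51.4, 43.7 and 63.0 FPKM in PBS 1 to 3 and 27.0, 30.3, 29.1 and 29.3 FPKM in OL 12, 34, 56 and 78. All 4 Vehicle libraries lay below all 3 PBS libraries. Rela differed by −0.83 on the log2 scale (SE 0.14, adjusted p = 0.00366 by limma), and the call was kept in all 11 fits that left out 1 library. After GC correction it was −0.46 (SE 0.13, adjusted p = 0.0288), and without PBS 3 it was −0.70 (adjusted p = 0.00792).

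Relb (ENSMUSG00000002983, chr7:19606217-19629438, minus strand) encodes the subunit of the non-canonical pathway, which pairs with the processed product of Nfkb2. Its levels were 10.5, 10.5 and 14.1 FPKM in PBS and 6.58, 7.18, 8.14 and 6.81 FPKM in Vehicle, again without overlap. The log2 fold change of −0.63 (SE 0.12, adjusted p = 0.00503 by limma) fell in size to −0.31 (SE 0.10, adjusted p = 0.0469) after GC correction. Nfkb2 (ENSMUSG00000025225, chr19:46304320-46312385, plus strand), the precursor p100 and its product p52, stood at 16.1, 13.1 and 21.1 FPKM in PBS and 12.5, 10.3, 10.7 and 10.1 FPKM in Vehicle. The highest Vehicle library, OL 12, was just under the lowest PBS library. The Nfkb2 difference was −0.56 (SE 0.14, adjusted p = 0.0134 by limma), and it was not called after GC correction, at −0.19 (SE 0.10, adjusted p = 0.179). Of its exon bases, 18.1% are shared with genes on the opposite strand, and whether counting used strand is not stated.

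Nfkb1 (ENSMUSG00000028163, chr3:135584655-135691547, minus strand), the precursor p105 and its product p50, was 15.2, 13.7 and 19.2 FPKM in PBS and 12.97, 12.1, 11.2 and 12.6 FPKM in Vehicle. The groups were separate but close, and PBS 3 was well above PBS 1 and 2. A difference of −0.35 (SE 0.11, adjusted p = 0.0304 by limma) lost its call without PBS 3 (−0.22, adjusted p = 0.0834), and also without OL 34, OL 56 or OL 78 and in a fit of these 2 groups alone (adjusted p = 0.0708). Unlike the other members called, Nfkb1 has a transcript of low GC content (44.9%), and GC correction moved its fold change away from 0, to −0.61 (SE 0.16, adjusted p = 0.0258). GC content was taken from the longest annotated transcript of a gene, and which Nfkb1 transcripts these libraries held was not tested.

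Rel (ENSMUSG00000020275, chr11:23736847-23770970, minus strand) was 5.24, 6.13 and 3.18 FPKM in PBS and 6.38, 5.61, 6.08 and 5.001 FPKM in Vehicle. The groups overlapped, and PBS 3 was the lowest library. The fold change of 0.24 (SE 0.17, adjusted p = 0.266 by limma) turned to −0.16 (SE 0.10, adjusted p = 0.277) after GC correction, so no direction can be given.

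Among the IκB proteins, Nfkbib (ENSMUSG00000030595, chr7:28758251-28767512, minus strand), which encodes IκBβ, was 11.1, 13.2 and 15.1 FPKM in PBS and 9.70, 8.78, 9.78 and 9.30 FPKM in Vehicle. The groups did not overlap, and Nfkbib differed by −0.43 (SE 0.11, adjusted p = 0.0117 by limma). The difference was −0.07 (SE 0.08, adjusted p = 0.532) after GC correction. Of the exon bases of Nfkbib, 16.4% are shared with Ccer2 and Sirt2 on the opposite strand.

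Nfkbia (ENSMUSG00000021025, chr12:55489410-55492647, minus strand) was 67.8, 71.6 and 114 FPKM in PBS and 82.7, 111, 134 and 96.3 FPKM in Vehicle. All 4 Vehicle libraries exceeded PBS 1 and 2, and PBS 3 lay above 3 of them. Its fold change was 0.34 (SE 0.21, adjusted p = 0.214 by limma), 0.58 without PBS 3 and 0.48 (adjusted p = 0.124) after GC correction, and neither was called. With limma's array weights, which are estimated from these same values, it was called at 0.59 (SE 0.13, adjusted p = 0.00314). Of all genes tested, the weighted fit called 3443 higher and 4473 lower. Nfkbie (ENSMUSG00000023947, chr17:45555703-45563169, plus strand), the IκBε gene, was 6.28, 7.24 and 6.73 FPKM in PBS and 7.01, 5.19, 5.64 and 4.78 FPKM in Vehicle. OL 12 fell among the PBS libraries and the other 3 lay below them, for a fold change of −0.23 (SE 0.13, adjusted p = 0.189 by limma). It was −0.23 without PBS 3 and turned to 0.036 after GC correction, so no direction can be given.

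Nfkbiz (ENSMUSG00000035356, chr16:55811375-55838899, minus strand) encodes IκBζ, a nuclear family member that acts as a cofactor at a subset of target genes. It was 12.7, 11.9 and 11.5 FPKM in PBS and 14.6, 14.1, 11.6 and 12.9 FPKM in Vehicle, with overlap and an adjusted p of 0.334 by limma. Tnfaip3 (ENSMUSG00000019850, chr10:19000910-19015657, minus strand) encodes A20, a ubiquitin-editing enzyme that switches off the kinase complex. Its 4 Vehicle libraries, at 8.45, 8.03, 7.28 and 7.53 FPKM, lay above the PBS libraries at 6.28, 7.14 and 6.91 FPKM. No overlap in this direction was seen for 18.7% of all genes tested, and the fold change of 0.18 (SE 0.14, adjusted p = 0.326 by limma) was not called. Nfkbiz and Tnfaip3 were not called after GC correction or without PBS 3 either.

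Transcript GC content was high in 4 of the 5 genes called, at 59.4% in Nfkb2 and in Rela, 58.8% in Nfkbib and 56.8% in Relb, where the median gene tested had 49.9%. Over the 1975 genes tested of 56 to 60% GC, the median fold change was −0.41 and 50.03% were called lower. Rela, Relb and Nfkb2 lay below that median and Nfkbib close to it. After GC correction 3 members (Nfkb1, Rela and Relb) were called lower, against 12.9% of all genes. Without PBS 3 the members called were Rela, Relb, Nfkb2 and Nfkbib, against 13.5% of all genes, and with both changes together 0 members were called by limma, with 3 lower and 1 higher at an unadjusted p under 0.05 and 1.12% of all genes called lower. In that fit Nfkb1 had an adjusted p of 0.0613, Rela of 0.105 and Relb of 0.163. Endothelial markers, summed over 3 genes, ran from 290 to 322 FPKM in Vehicle and from 362 to 623 in PBS, and alveolar markers from 4870 to 8073 and 9681 to 15453. Ciliated cell markers moved the other way, with 86.4 to 119 FPKM in Vehicle and 29.2 to 49.1 in PBS, and mitochondrial genes took 14.5 to 19.5% of FPKM in Vehicle and 2.08 to 10.1% in PBS. With libraries scaled to the same FPKM total without mitochondrial genes, 5 members were called lower and 0 higher by limma. Of all genes in the scaled fit, 2943 were called lower and 1832 higher. Beyond this scaling, the part of these cell types and of the mitochondrial share in the members' differences was not tested.

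**Figure D2:**
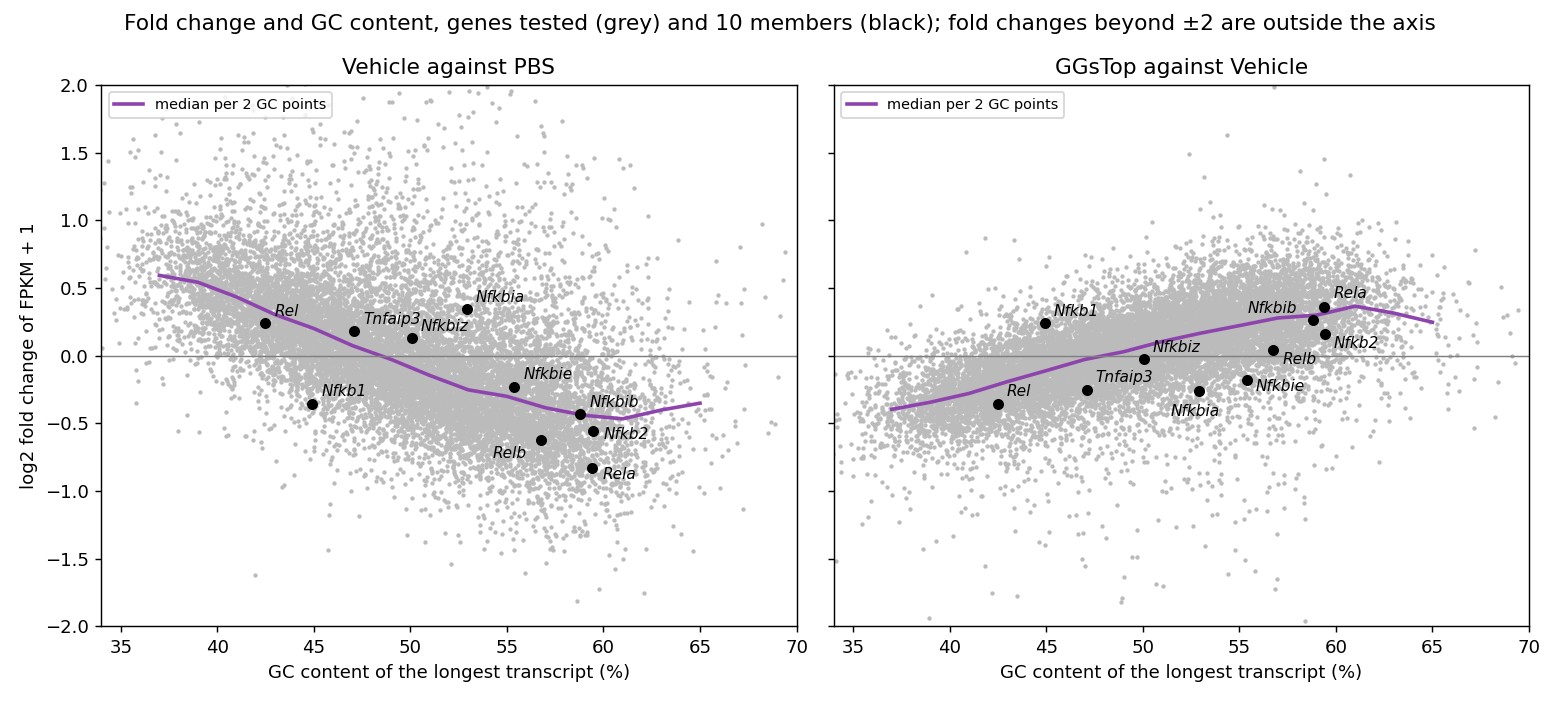
Log2 fold change of FPKM + 1 (vertical axis) against transcript GC content in percent (horizontal axis) for all genes tested (grey) and the 10 genes (black), Vehicle against PBS on the left and GGsTop against Vehicle on the right, with the median per 2 GC points as a line. Nfkbib sits near the line in both panels, whereas Nfkb1 lies well below it on the left and well above it on the right.

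The second comparison asks what GGsTop changed in OVA/LPS mice. No member was called by limma, where 6.9% of all genes were called higher and 1.81% lower. At an unadjusted p under 0.05, 2784 of the 14004 genes tested were higher and 1535 lower. Among the members there were 3 higher (Nfkb1, Rela and Nfkbib) and 1 lower (Rel). Member counts by voom on recovered fragments were the same, with 0 called and 3 higher and 1 lower at an unadjusted p under 0.05. In these 4 genes the GGsTop libraries did not overlap with the Vehicle libraries, which held for 17.3% of all genes in the higher direction and 12.4% in the lower. Mitochondrial genes took 14.5 to 19.5% of FPKM in Vehicle and 7.40 to 11.1% in GGsTop, also without overlap. With libraries scaled to the same FPKM total without these genes, 0 members were called higher and 0 lower by limma. Of all genes in the scaled fit, 699 were called higher and 148 lower. Beyond this scaling, the part of the mitochondrial share in the members' differences was not tested. The members' median fold change was 0.01, against 0.03 over all genes tested.

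Rela was 38.4, 37.8, 43.1 and 31.2 FPKM in OLG 1 to 4, each above the highest Vehicle library, with a log2 difference of 0.36 (SE 0.13, adjusted p = 0.0878 by limma). OLG 4 came nearest to the Vehicle libraries. Nfkbib was 11.2, 12.6, 11.3 and 10.8 FPKM, a difference of 0.26 (SE 0.10, adjusted p = 0.106 by limma). Both differences were near 0 after GC correction, at 0.07 and −0.03. Nfkb1 was 14.4, 14.7, 15.4 and 13.8 FPKM, a difference of 0.24 (SE 0.10, adjusted p = 0.151 by limma), which stood at 0.38 (SE 0.15, adjusted p = 0.189) after GC correction. Rel was 4.97, 4.50, 3.85 and 3.87 FPKM, with OLG 1 just under OL 78, and differed by −0.35 (SE 0.16, adjusted p = 0.148 by limma), or −0.11 after GC correction.

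These calls depended on the library PBS 3, which enters the comparison through the shared estimate of the spread. Without it all 4 genes were called, with adjusted p-values of 0.0319 for Nfkb1, 0.0278 for Rela, 0.0308 for Nfkbib and 0.0277 for Rel by limma. The share of all genes called rose to 15.3% higher and 10.3% lower in the same fit. A fit of the Vehicle and GGsTop libraries alone called the same 4 genes, with adjusted p-values of 0.0265 to 0.0363. Of all genes tested, that fit called 2119 higher and 1406 lower. With GC correction and without PBS 3, Nfkb1 was the 1 member called (adjusted p = 0.0441 by limma), where 1.24% of all genes were called higher.

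The other 6 members overlapped between the GGsTop and Vehicle groups. Nfkbia was 99.6, 93.6, 89.9 and 67.9 FPKM in GGsTop, a difference of −0.26 (SE 0.20, adjusted p = 0.382 by limma). Tnfaip3 was 7.96, 7.19, 6.32 and 4.58 FPKM, with OLG 4 below every other library of the series, and a difference of −0.25 (SE 0.13, adjusted p = 0.219 by limma). Nfkbie was 4.19, 5.82, 4.37 and 5.10 FPKM, a difference of −0.18 (SE 0.12, adjusted p = 0.339 by limma), and after GC correction its GGsTop libraries lay below all Vehicle libraries, at −0.40 (SE 0.11, adjusted p = 0.0903). Relb, Nfkb2 and Nfkbiz had differences of 0.04, 0.16 and −0.03, of which the first 2 turned negative after GC correction. Their GGsTop levels were 6.90 to 8.28, 10.9 to 13.3 and 11.5 to 14.5 FPKM.

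**Figure D3:**
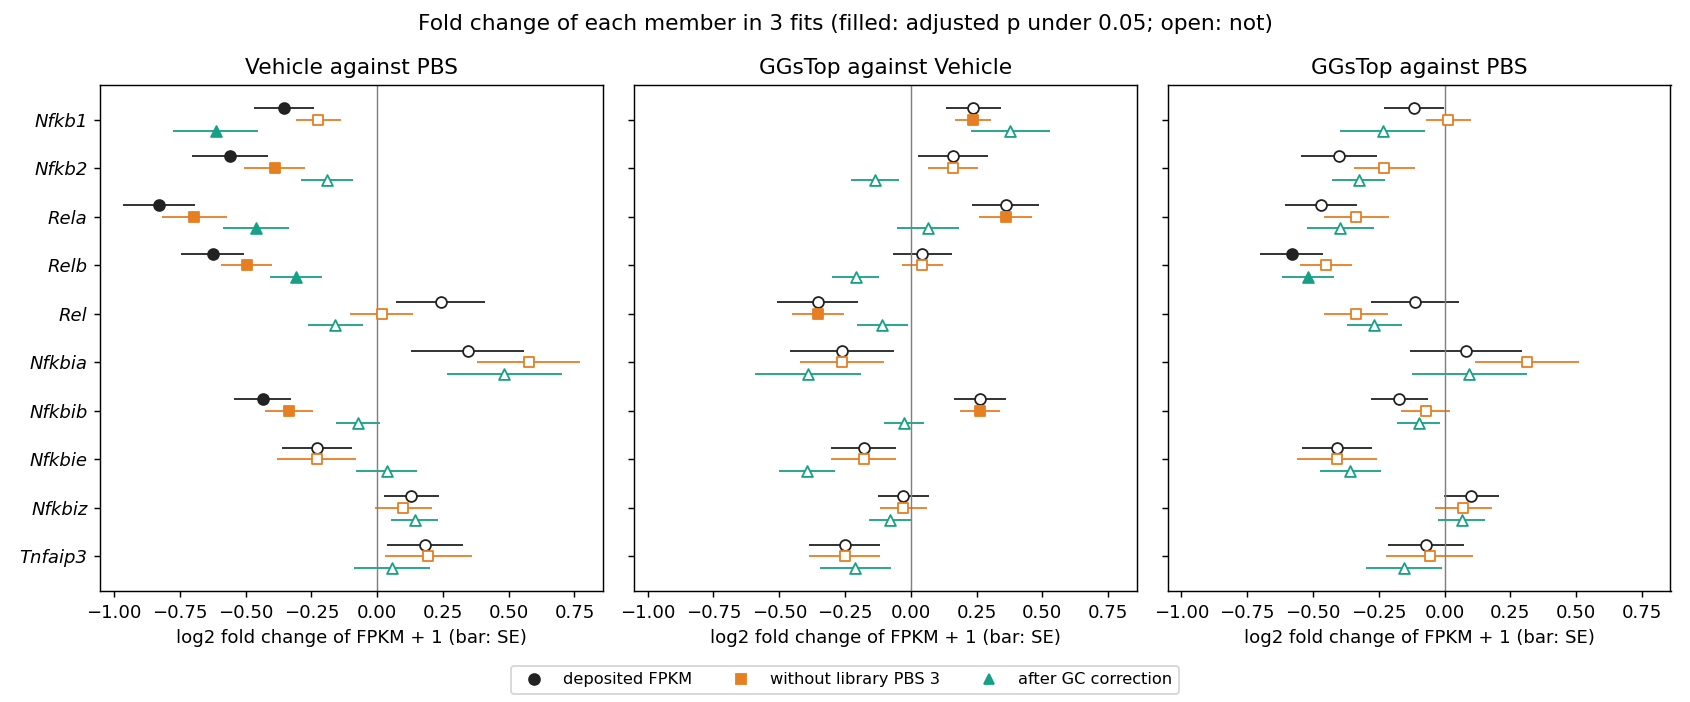
Log2 fold change of FPKM + 1 (horizontal axis, bars are the SE) of the 10 genes in the 3 comparisons, from the deposited FPKM (circles), without the library PBS 3 (squares) and after GC correction (triangles), filled where the adjusted p was under 0.05. Rela and Relb are below 0 and filled in all 3 fits of Vehicle against PBS. Nfkb1, Nfkb2 and Nfkbib are also below 0 in all 3 but are not filled in every one. Nfkbib moves to near 0 after GC correction in both OVA/LPS comparisons.

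GGsTop and PBS mice were compared to see which members still differed after treatment. Relb was the 1 member called, lower by 0.58 on the log2 scale in the GGsTop group (SE 0.12, adjusted p = 0.0299 by limma), where 0.821% of all genes were called lower and 2.06% higher. Its GGsTop libraries held 7.28, 7.24, 6.90 and 8.28 FPKM and all lay below the 3 PBS libraries. GC correction left a difference of −0.52 (SE 0.10, adjusted p = 0.0190), with 1.49% of all genes called lower. With the replicate number as a block over PBS 1 to 3 and OLG 1 to 3 the Relb difference was −0.63 (SE 0.15, adjusted p = 0.101) and was not called, and with the block and GC correction together it was −0.55 (adjusted p = 0.0449). Without PBS 3 it was −0.45 (SE 0.10, adjusted p = 0.0846). Relb was called in 5 of the 11 fits with 1 library left out, and was lost without PBS 1, PBS 3, OL 34, OL 78, OLG 1 or OLG 2. That fit of 6 libraries called 46 genes higher and 16 lower, in place of 288 and 115. It also left out OLG 4 and the Vehicle libraries, and a fit of all PBS and GGsTop libraries with no block called 30 and 9, with an adjusted p of 0.125 for Relb, so the loss of the Relb call cannot be put down to the pairing. B cell markers, summed over 4 genes, ran from 31.3 to 61.0 FPKM in GGsTop and from 90.6 to 97.7 in PBS, and 3 of the 4 genes were lower at an unadjusted p under 0.05. Ciliated cell markers ran from 88.0 to 195 FPKM in GGsTop and from 29.2 to 49.1 in PBS, and club cell markers from 41551 to 48831 and from 28022 to 39140. The part of these cell types in the Relb difference was not tested.

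At an unadjusted p under 0.05, 1371 of the 14004 genes tested were lower and 1502 higher in GGsTop than in PBS. Of the members, 4 were lower and 0 higher. Besides Relb, the lower members were Rela at −0.47 (SE 0.14, adjusted p = 0.0857 by limma), Nfkbie at −0.41 (SE 0.13, adjusted p = 0.122) and Nfkb2 at −0.40 (SE 0.14, adjusted p = 0.154). After GC correction these 3 stood at −0.40, −0.36 and −0.33 and without PBS 3 at −0.34, −0.41 and −0.23, and none was called in either fit. Relb, Rela and Nfkbie did not overlap between the groups, which held for 7.54% of all genes in this direction, and OLG 2 overlapped with PBS 2 for Nfkb2. Nfkb1, Nfkbib and Nfkbia had differences of −0.12, −0.17 and 0.08, and their groups overlapped. Nfkb1 turned to 0.014 without PBS 3. The 3 comparisons share libraries with one another, so their values do not support each other independently. For Rela they were −0.83 (Vehicle against PBS), 0.36 (GGsTop against Vehicle) and −0.47 (GGsTop against PBS), and for Relb −0.63, 0.04 and −0.58.

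Ratios of 2 genes within a library do not depend on the library total. They were chosen after the levels had been seen and carry no test. The level of Nfkbia relative to Rela was 1.32, 1.64 and 1.80 in PBS, 3.06, 3.67, 4.60 and 3.29 in Vehicle and 2.59, 2.47, 2.09 and 2.18 in GGsTop. No pair of groups overlapped, with Vehicle highest, PBS lowest and GGsTop between them. After GC correction the log2 difference of the same 2 genes was 0.45 to 1.11 in PBS, 1.48 to 2.04 in Vehicle and 1.12 to 1.39 in GGsTop, still without overlap, although PBS 3 at 1.11 and OLG 3 at 1.12 nearly met. Rela relative to Nfkb1 was 3.20 to 3.39 in PBS and lower in both other groups, at 2.08 to 2.61 and 2.26 to 2.80, and these groups overlapped with PBS after GC correction. The ratio of Rel to Rela was 0.171 to 0.236 in Vehicle, above the 0.0505 to 0.140 in PBS and 0.0893 to 0.130 in GGsTop, and all 3 groups overlapped after GC correction. Rela and Nfkb2 have nearly the same GC content, and their ratio was 3.20, 3.34 and 2.98 in PBS and 2.16, 2.93, 2.72 and 2.91 in Vehicle, below PBS in 4 of 4 libraries, while GGsTop overlapped with both at 2.502 to 3.53. Summed over the 5 subunits, the level was 87.1 to 121 FPKM in PBS, 63.8 to 65.5 in Vehicle and 69.6 to 81.6 in GGsTop. No groups overlapped in this sum, and Rela made up 41.3 to 52.8% of it. Unlike a ratio, the sum depends on the library total, and it was not recomputed after GC correction. After that correction Rela overlapped between GGsTop and Vehicle, at a log2 difference of 0.07. Nfkb1 then differed by 0.38, and Nfkb2, Relb and Rel by −0.14, −0.21 and −0.11. The part of the GC slope in the separation of the sums was not tested.

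**Figure D4:**
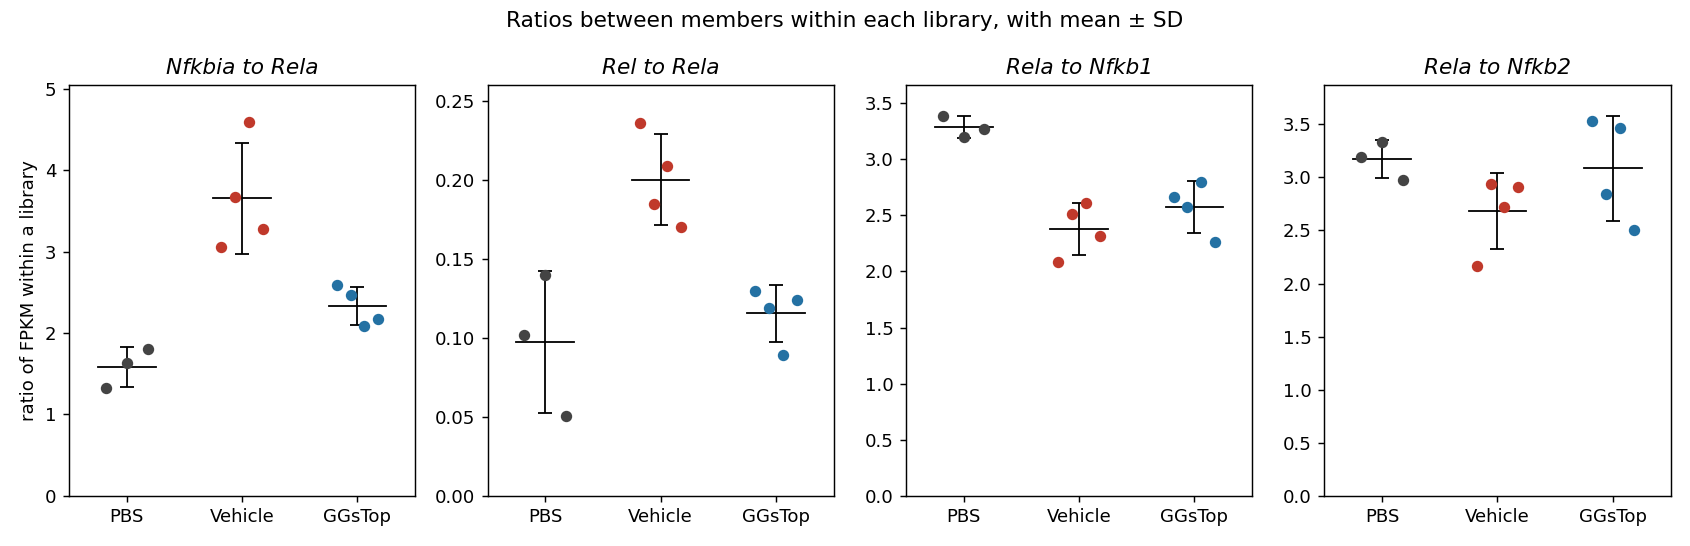
Ratios of FPKM between members, computed within each library and plotted by group (vertical axis from 0, 1 point per library, bars are the mean and SD). The Nfkbia to Rela ratio lies between 1.32 and 1.80 in PBS, 3.06 and 4.60 in Vehicle and 2.09 and 2.59 in GGsTop.

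Upstream of the members, the 10 genes of the IKK complex and its activating kinases gave 1 higher and 2 lower calls in Vehicle against PBS, with a median fold change of 0.09. In this comparison 15.9% of all genes tested were called higher and 22.1% lower. Map3k14, the NIK kinase that starts the non-canonical pathway toward Nfkb2 and Relb, was 4.95, 4.61 and 6.61 FPKM in PBS and 2.94, 2.41, 2.31 and 2.27 FPKM in Vehicle. Every Vehicle library was lower, and Map3k14 changed by −0.87 (SE 0.12, adjusted p = 0.00337 by limma), or −0.50 (adjusted p = 0.00798) after GC correction. Tab1, a partner of the kinase TAK1, changed by −0.54 and Chuk, which encodes IKKα, by 0.51 (adjusted p = 0.0232 and 0.0279 by limma), and neither was called after GC correction or without PBS 3. Ikbkg, the scaffold NEMO, had values of 6.82 to 8.02 FPKM in PBS and 7.84 to 9.17 in Vehicle and was not called (0.17, adjusted p = 0.190, or −0.10 after GC correction). In GGsTop the Map3k14 levels were 3.39, 3.79, 3.28 and 3.67 FPKM, above all Vehicle and below all PBS libraries, with adjusted p-values of 0.0564 and 0.0574 by limma. In each of the comparisons with GGsTop, limma and voom called 0 of the 10 genes, with 2 higher and 0 lower against Vehicle and 1 higher and 1 lower against PBS at an unadjusted p under 0.05. Without PBS 3, however, 3 of the 10 were called higher (Ikbkb, Map3k14 and Tab1) and 1 lower (Tab3) in GGsTop against Vehicle. In that fit 15.3% of all genes were called higher and 10.3% lower. After GC correction Map3k14 was called lower in GGsTop than in PBS, as were 1.49% of all genes.

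Adaptors and ubiquitin enzymes between the receptors and the kinases gave 12 lower calls and 1 higher among 21 genes in Vehicle against PBS, with a median of −0.31. Of all genes tested, 22.1% were called lower and 15.9% higher. Without PBS 3 there were 5 lower and 0 higher in the list, where 13.5% of all genes were called lower. After GC correction there were 8 lower and 0 higher, where 12.9% of all genes were called lower. Myd88, the adaptor of the Toll-like and IL-1 receptors, changed by −0.54 (SE 0.10, adjusted p = 0.00449 by limma) and kept its call in both of these fits. Rnf31, the catalytic subunit of the linear ubiquitin ligase, was 10.7, 8.14 and 14.3 FPKM in PBS, 7.03, 6.31, 5.77 and 5.93 in Vehicle and 10.5, 8.51, 9.90 and 8.86 in GGsTop. It was called lower in Vehicle (−0.71, SE 0.15, adjusted p = 0.00776 by limma) and higher with GGsTop than with vehicle (0.52, SE 0.14, adjusted p = 0.0465), the 1 gene of this list so called. That second call was lost after GC correction (0.44, adjusted p = 0.138), whereas without PBS 3 there were 5 higher calls in the list, Rnf31 among them. In the fit without PBS 3, 15.3% of all genes were called higher. Against PBS, limma and voom called 0 of the 21 in GGsTop, with 0 higher and 2 lower at an unadjusted p under 0.05.

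Of all genes tested, 22.1% were called lower and 15.9% higher in Vehicle against PBS. Ligands and receptors that feed the pathway gave 3 lower calls and 1 higher among 19 genes in this comparison, with a median of 0.04. The lower genes were receptors of the TNF family. Tnfrsf1a, the main TNF receptor, was 61.4 to 98.4 FPKM in PBS and 40.9 to 47.6 in Vehicle (−0.81, SE 0.16, adjusted p = 0.00535 by limma), and it was also called after GC correction and without PBS 3. Ltbr, the lymphotoxin β receptor, and Cd40 changed by −0.62 and −0.74 (adjusted p = 0.0105 and 0.0140), of which Ltbr was not called after GC correction and Cd40 was not called without PBS 3. Tlr4, the LPS receptor, was the higher gene, and it was called neither after GC correction nor without PBS 3. Limma and voom called 0 of the 19 in both comparisons with GGsTop, with 2 higher and 3 lower against Vehicle and 0 higher and 4 lower against PBS at an unadjusted p under 0.05. Without PBS 3, Tnfrsf1a and Ltbr were called higher and Tnfrsf13c lower in GGsTop against Vehicle, where 15.3% of all genes were called higher and 10.3% lower.

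Other feedback regulators gave 2 lower calls and 1 higher among 10 of 11 genes tested in Vehicle against PBS, with a median of −0.25. Over all genes tested these shares were 22.1% lower and 15.9% higher. Tnip2, an A20-binding protein, was 19.5, 16.2 and 24.8 FPKM in PBS, 11.9, 13.9, 12.01 and 13.9 in Vehicle and 19.9, 17.6, 20.6 and 15.8 in GGsTop. The Vehicle libraries lay below both other groups. Tnip2 was called lower in Vehicle (−0.59, SE 0.14, adjusted p = 0.0113 by limma) and higher with GGsTop (0.48, SE 0.13, adjusted p = 0.0476), and neither call held after GC correction. The call with GGsTop was not made by voom on recovered fragments either. Without PBS 3, 2 genes (Tnip2 and Tollip) were called higher and 1 (Cyld) lower in GGsTop against Vehicle, where 15.3% of all genes were called higher and 10.3% lower. Tollip, which dampens Toll-like receptor signalling, changed by −0.29 (adjusted p = 0.0175 by limma) and kept this after GC correction and without PBS 3. Cyld, a deubiquitinase, changed by 0.38 (adjusted p = 0.0384) and kept it in neither. Bcl3, a nuclear IκB protein, was 7.32 to 15.1 FPKM in PBS and 5.70 to 9.30 in Vehicle and was not called (−0.33, adjusted p = 0.255, or 0.029 after GC correction). In GGsTop against PBS, limma and voom called 0 of the 10, with 0 higher and 1 lower at an unadjusted p under 0.05.

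Target genes of the pathway moved both ways in Vehicle against PBS, where 15.9% of all genes tested were called higher and 22.1% lower. There were 8 higher and 6 lower calls among 27 of 31 targets tested, with a median of 0.04. The higher genes were the chemokines Cxcl1, Cxcl2, Cxcl5, Ccl2 and Ccl20, together with Ptgs2, Sod2 and Saa3, and the lower genes were Icam1, Nos2, Mmp9, Ier3, Ccnd1 and Junb. After GC correction there were 7 higher and 4 lower calls, and Ccl2, Ptgs2, Sod2, Nos2, Mmp9 and Junb lost theirs, while Lcn2 and Cd83 were called higher and Vcam1 lower. Without PBS 3 there were 7 higher and 3 lower calls, and Sod2, Nos2, Mmp9 and Ccnd1 lost theirs. Of the 14004 genes tested, 1104 were called higher and 12.9% lower after GC correction. Without PBS 3 these were 1175 and 13.5%. Ier3, an immediate early gene, was 172, 94.9 and 171 FPKM in PBS and 56.3, 73.2, 47.5 and 52.1 in Vehicle (−1.30, SE 0.28, adjusted p = 0.00688 by limma). In GGsTop it was 60.9, 61.1, 83.3 and 37.0 FPKM, still lower than in PBS (−1.26, SE 0.28, adjusted p = 0.0372), although with the replicate block the adjusted p was 0.0566 and without PBS 3 it was 0.143. Against Vehicle, 5 targets were called lower with GGsTop (Cxcl1, Cxcl2, Cxcl5, Ccl20 and Vcam1) and 1 higher (Bcl2l1), with a list median of −0.10. Of all genes tested, 1.81% were called lower and 6.9% higher. After GC correction 3 targets were called lower (Cxcl1, Cxcl5 and Ccl20) and 0 higher. The corrected fit called 22 of all genes tested lower and 34 higher. Without PBS 3 Ptgs2 was called lower in addition to the 5, where 10.3% of all genes were called lower and 15.3% higher. The chemokine differences were of another size than those of the members, at 3.16 for Ccl20 and 1.44 for Cxcl1 in Vehicle against PBS and −2.73 and −1.38 in GGsTop against Vehicle (adjusted p = 0.00337, 0.00365, 0.00842 and 0.0131 by limma), and these 4 calls were kept after GC correction and without PBS 3. Plau, which encodes urokinase, was called lower with GGsTop than in PBS (−0.60, SE 0.14, adjusted p = 0.0476 by limma). Voom on recovered fragments did not call it, and limma did not with the block (adjusted p = 0.180) or without PBS 3 (adjusted p = 0.0913). After GC correction Ier3, Plau and Vcam1 were called lower in GGsTop than in PBS, as were 1.49% of all genes. Without PBS 3 limma called 0 of the 27 targets, with 2 higher and 5 lower at an unadjusted p under 0.05. Of all genes tested, the fit without PBS 3 called 39 higher and 17 lower.

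Over the 11 libraries, the members most alike in log2(FPKM + 1) were Nfkb1 and Rela (Pearson r = 0.88) and the least alike were Nfkb1 and Rel (r = −0.78). These correlations describe libraries that share group and GC slope and have no test. Among all genes tested, the 2 closest to Rela were Mtcl1 (r = 0.99) and Cdc42bpg (r = 0.99), those closest to Nfkb1 were Ap2a2 (r = 0.99) and Sbno2 (r = 0.99), and those closest to Nfkb2 were Ptpa (r = 0.98) and Adprh (r = 0.97). Relb was closest to Nudt18 (r = 0.95) and Nfe2l1 (r = 0.94), Nfkbib to Eef2 (r = 0.97) and Fiz1 (r = 0.97), and Rel to Fbxo8 (r = 0.94) and Usp25 (r = 0.94). For Nfkbia these were Scand1 (r = 0.96) and Rpl27a (r = 0.92), and for Nfkbie they were Adrb3 (r = 0.95) and Alg9 (r = 0.91). The likeness was lowest for Nfkbiz, with Gm8113 (r = 0.88) and Akap10 (r = 0.85), and Tnfaip3, with Ostm1 (r = 0.90) and Suv39h2 (r = 0.85). The genes closest to Rela had GC contents of 60.2 and 60.3%, near its own 59.4%, and those closest to Rel had 39.8 and 45.4%, on either side of its 42.5%. Those closest to Nfkb1 had 53.8 and 59.1%, above its 44.9%, and Scand1, closest to Nfkbia, had 68.4% against 52.9%.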

How the data were processed

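Airway poly-A RNA was sequenced in 11 libraries (PBS 3, OVA/LPS/Vehicle 4, OVA/LPS/GGsTop 4), for which the authors deposited FPKM. The submitters' processing notes name cutadapt 1.15, HISAT2 2.0.5, HTSeq 0.9.1 and the build mm39, and the annotation is not given in the sources used here. GENCODE M21 (GRCm38) held 21795 of the 21899 identifiers and gave symbols, positions, exon lengths and GC content, the last from the longest transcript of a gene. FPKM multiplied by exon length was a whole number of fragments, within 0.05, for about 97.9% of values above 0, and this gave the depth. No 2 libraries of a group agreed within sampling noise.

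Genes averaging at least 0.5 FPKM were tested on the log2(FPKM + 1) scale by limma 3.58.1 (R 4.3.3), with a mean-variance trend and 3 group means in 1 fit, at an adjusted p under 0.05. The study's own test on counts was not used here. GC correction subtracted, library by library, a natural spline (5 degrees of freedom) of the deviations from gene means on GC content. These fits were tested on simulated data. Alternatives were another pseudocount, filters, scalings, no trend, array weights, 2 groups only, GC correction, a replicate block and each library left out. Scaling without mitochondrial genes, voom on recovered fragments and GC correction without PBS 3 were added after seeing the data. PBS and OVA/LPS/GGsTop share replicate numbers 1 to 3 in their titles, and the deviations of same-numbered libraries correlated at 0.367, 0.427 and 0.428. Other pairs reached 0.637, so this pairing is a hint from the data that the design does not describe.

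The members and lists were chosen with earlier results of these data known. Named genes are the members, up to 3 called genes a list and comparison with the smallest p, Bcl3, Map3k14 and Ikbkg, and the 2 genes most correlated with each member. Other genes of a list are named as part of its count. The result of 1 gene named by this rule is not reported here. Python 3.11.15 with numpy 2.4.6, pandas 2.3.3 and matplotlib 3.10.9 made the tables and figures.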

Additional observations from a re-analysis of the deposited data

Results flagged for a closer look

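In groups of 4 libraries, a library was singled out where its gap to the nearest other took up more of the group's range than Dixon's 95% critical value. This was met by 4 of 86 groups of values, and chance flags about 1 in 20. Chuk was 21.1 FPKM in OLG 1, above 17.5 to 17.998 FPKM in the other GGsTop libraries. Myd88 was 15.1 FPKM in OLG 4, below 16.4 to 16.5 FPKM in the others. The ratio of Nfkbie to Relb was 1.07 in OL 12, above 0.694 to 0.723 in the other Vehicle libraries, and OL 12 is also the library with thymocyte markers, whose part in this value was not tested. Nfkb1 made up 19.8% of the summed subunit FPKM in OLG 4 and 18.8 to 19.0% in the other GGsTop libraries.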

How the results depend on the processing

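The first comparison (Vehicle against PBS) called 2231 higher and 3096 lower genes as reported, the second (GGsTop against Vehicle) 966 and 254, and the third (GGsTop against PBS) 288 and 115. Of the values recomputed for members, 644 kept their direction and side of the threshold, 22 lost a call, 21 gained one and 23 changed sign. For the values below that differ from these, the cause was not tested. In the first comparison, genes called higher were 1232 with the same FPKM total, 3443 with array weights, 1104 with GC correction and 153 with GC correction and PBS 3 left out, and genes called lower were 1806 and 157 with these 2 corrections. Members called lower were 3 and 0 with them, pathway list genes called were 23 and 5 in place of 37, and 1 member (Nfkbia) was higher with array weights. In the second, higher and lower genes were 384 and 407 with the same median, 2026 and 155 with the same FPKM total, 148 lower without mitochondrial genes in that total, 3232 and 1982 with array weights, 2119 and 1406 with 2 groups only, 34 and 22 with GC correction, and 174 and 124 with GC correction and PBS 3 left out. Members called higher were 2 with the same FPKM total, 3 with array weights, 3 with 2 groups only and 1 with GC correction and PBS 3 left out, and 1 was lower with 2 groups only. Pathway list genes called were 8 as reported and 5, 13, 32, 20, 3 and 3 in these settings (same median, same total, weights, 2 groups, GC correction, and GC correction with PBS 3 left out). In the third, higher and lower genes were 147 and 61 with no filter, 243 lower with the same FPKM total, 1379 and 1178 with array weights, 30 and 9 with 2 groups only, 208 lower with GC correction, and 43 and 16 with GC correction and PBS 3 left out. Members called lower were 4 with array weights and 0 with 2 groups only or with GC correction and PBS 3 left out, and pathway list genes called were 0, 5, 1, 16, 0, 4, 1, 1 and 0 in place of 2 (no filter, same total, no trend, weights, 2 groups, GC correction, total without mitochondrial genes, voom, and GC correction with PBS 3 left out).

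With the replicate block in the third comparison, fitted to PBS 1 to 3 and OLG 1 to 3, 46 genes were called higher and 16 lower, 0 members and 0 pathway list genes. Relb, Ier3 and Plau were not called in it, and no other call among the named genes changed. They were not called with 2 groups only either, which has no block (adjusted p = 0.125, 0.136 and 0.150 by limma), so these losses cannot be put down to the pairing.

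With 1 library left out, the first comparison called 1175 to 3045 higher and 1889 to 3395 lower genes, 0 members higher, 4 to 5 members lower and 20 to 44 pathway list genes, with both gene minima without PBS 3. The second called 20 to 2144 and 4 to 1447 genes, 0 to 3 and 0 to 1 members and 2 to 22 list genes, with the gene maxima without PBS 3 and the minima without OLG 1. The third called 21 to 955 and 8 to 642 genes, 0 members higher, 0 to 3 members lower and 0 to 10 list genes, with the gene minima without PBS 1 and the maxima without PBS 2.

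The following fold changes changed sign. In the first comparison, GC correction gave Rel −0.16, Nfkbie 0.036, Bcl3 0.029 and Ikbkg −0.098, GC correction with PBS 3 left out gave Rel −0.22, Bcl3 0.20 and Ikbkg −0.043, and the same FPKM total gave Nfkbiz −0.033. In the second, GC correction with or without PBS 3 gave Nfkb2 −0.14, Relb −0.21, Nfkbib −0.026, Bcl3 −0.11, Chuk 0.22, Ier3 −0.14 and Ikbkg 0.15, the same FPKM total gave Nfkbiz 0.061, Chuk 0.025 and Ikbkg 0.081, and array weights gave Ikbkg 0.016. With 1 library left out Relb ranged from −0.0029 to 0.099, Nfkbiz from −0.087 to 0.024, Ier3 from −0.13 to 0.26 and Ikbkg from −0.057 to 0.038. In the third, GC correction gave Cxcl1 −0.058 and Cyld −0.096, GC correction with PBS 3 left out gave Nfkb1 0.011, Bcl3 0.089, Cyld −0.13 and Tnip2 0.032, array weights gave Nfkbib 0.015, Tnfaip3 0.12, Bcl3 0.00011 and Cyld −0.057, and the same FPKM total gave Cyld −0.021. The replicate block gave Tnfaip3 0.066 and Cxcl1 −0.014, and with GC correction Ccl20 −0.046, Cxcl1 −0.13, Cyld −0.068 and Tnip2 0.011. Ranges with 1 library left out were −0.22 to 0.014 for Nfkb1, −0.34 to 0.047 for Rel, −0.053 to 0.31 for Nfkbia, −0.16 to 0.066 for Tnfaip3, −0.33 to 0.15 for Bcl3, −0.014 to 0.14 for Cxcl1, −0.13 to 0.16 for Cyld, −0.37 to 0.0060 for Rnf31 and −0.25 to 0.047 for Tnip2.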
